A study of Homo sapiens with 16 samples.

Results

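The genes described here are 30 genes of cholesterol synthesis, its control, uptake and transport inside the cell, and efflux, chosen by name from 60676 gene identifiers and all 30 kept after the filter on low counts. They were followed in LNCaP, an androgen-sensitive line of human prostate cancer cells that began as a lymph node metastasis. Unedited cells (WT) were compared with cells in which RB and p53 had both been knocked out by CRISPR-Cas9 (DKO). Each genotype received enzalutamide (EZ, 50 µM), an antagonist of the androgen receptor, or its solvent DMSO for 6 days. The resulting 4 groups held 4 replicates each (16 libraries), and all cells were kept in medium with fetal bovine serum. The labels do not say whether the DKO cells were 1 clone or a mixed population, nor whether a replicate was a culture of its own; the p-values therefore reflect only how these libraries vary, which may be technical.

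Cells make cholesterol from acetyl-CoA through mevalonate, farnesyl pyrophosphate, squalene and lanosterol. The transcription factor SREBP2, product of SREBF2, switches on nearly all enzymes of that route; when sterols are plentiful, the membrane proteins INSIG1 and INSIG2 hold SREBP2 and its escort SCAP in the endoplasmic reticulum and the enzymes' transcription falls. Sterol surplus also activates liver X receptors (LXRs), which raise the exporters ABCA1 and ABCG1 and the ubiquitin ligase MYLIP, which removes lipoprotein receptors from the cell surface. In prostate cells cholesterol is also the precursor from which androgens can be made.

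Total counts ran from 11823438 to 47678648 per library. RB1 stood at 95.6 to 128 CPM (counts relative to library size, scaled by edgeR's TMM factors) in WT libraries and at 9.04 to 13.4 in DKO libraries. All 6 luminal prostate markers were detected, summing to 1231 to 2463 CPM, but KLK3 and TMPRSS2 were far lower in DKO (mean KLK3 46.2 CPM in WT and 4.25 in DKO in DMSO, 19.8 and 1.15 in EZ), while 5 leukocyte markers summed to at most 0.682 CPM. Endothelial markers summed to 2.99 to 17.4 CPM, nearly all of it VWF (group means 3.70 to 13.1 CPM). Group means of PECAM1, CDH5 and KDR were at most 0.21 CPM. Fibroblast markers summed to 15.3 to 52.1 CPM, with all 8 DKO libraries above all 8 WT libraries. Most of that sum was COL1A1 (group means 17.2 to 37.4 CPM). LUM and PDGFRB reached 4.36 and 3.46 CPM, and COL1A2 and DCN were at most 0.06 CPM. Summed mitosis markers (10 genes, none past the threshold in any comparison) were low in WT DMSO replicate 4 (241 CPM against 815 to 1496 in the other WT DMSO libraries), WT EZ replicate 1 (190 against 741 to 813) and DKO EZ replicate 1 (349 against 905 to 1284). DKO DMSO replicate 4 was low as well (783 CPM against 1736 to 1982 in the other DKO DMSO libraries). The first 3 of these libraries also stood apart for several sterol genes. Values without them are given for some of the genes whose call or size depended on them.

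Promoter bases of 25 of the 30 genes were read from RefSeq on GRCh38.p14; FDFT1, SQLE, ACAT2, SCARB1 and ABCG1 had no entry. Runs are shown for genes whose changes are described below. Except for SREBF2, they are limited to the stretch upstream of the RefSeq start that lies in no GENCODE v29 exon. The SREBF2 run was cut around its match without that limit and may lie in an exon. Capitals mark the sterol regulatory element letters TCACNCCAC or CACCCCAC and the CCAAT box bound by NF-Y, a partner of SREBPs, which reads ATTGG on the other strand. The first run is 30 bases around the single TCACNCCAC match among the members' windows, upstream of SREBF2 itself at chr22:41832962-41832991 (+ strand).

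SREBF2: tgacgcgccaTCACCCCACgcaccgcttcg

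The next 4 runs lie upstream of genes that fell under EZ in both genotypes: INSIG1 at chr7:155297628-155297775 (+), MVD at chr16:88663162-88663297 (-), LSS at chr21:46228825-46229024 (-) and HSD17B7 at chr1:162790452-162790701 (+).

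INSIG1: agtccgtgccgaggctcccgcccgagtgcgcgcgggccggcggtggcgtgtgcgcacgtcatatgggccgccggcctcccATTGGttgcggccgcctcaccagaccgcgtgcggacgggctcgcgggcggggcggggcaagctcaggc

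MVD: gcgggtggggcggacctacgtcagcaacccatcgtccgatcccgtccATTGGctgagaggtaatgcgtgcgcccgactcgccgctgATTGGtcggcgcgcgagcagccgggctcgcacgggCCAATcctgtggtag

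LSS: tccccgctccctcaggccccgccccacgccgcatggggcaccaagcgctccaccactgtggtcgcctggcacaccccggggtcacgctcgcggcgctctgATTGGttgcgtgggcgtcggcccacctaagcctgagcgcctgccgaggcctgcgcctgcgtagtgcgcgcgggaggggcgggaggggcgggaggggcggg

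HSD17B7: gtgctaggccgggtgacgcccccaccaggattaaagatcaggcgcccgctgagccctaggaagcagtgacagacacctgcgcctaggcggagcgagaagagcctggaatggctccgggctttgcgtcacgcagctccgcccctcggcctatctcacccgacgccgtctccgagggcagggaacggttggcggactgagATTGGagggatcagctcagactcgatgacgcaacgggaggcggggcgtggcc

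The last 2 lie upstream of MYLIP, which rose under EZ, at chr6:16128836-16129085 (+), and of ABCA1, which passed the threshold in neither genotype, at chr9:104928238-104928405 (-).

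MYLIP: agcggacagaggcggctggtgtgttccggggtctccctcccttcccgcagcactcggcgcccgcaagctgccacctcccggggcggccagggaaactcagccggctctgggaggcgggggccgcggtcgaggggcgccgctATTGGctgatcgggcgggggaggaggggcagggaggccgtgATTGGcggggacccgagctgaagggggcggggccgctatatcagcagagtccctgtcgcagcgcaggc

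ABCA1: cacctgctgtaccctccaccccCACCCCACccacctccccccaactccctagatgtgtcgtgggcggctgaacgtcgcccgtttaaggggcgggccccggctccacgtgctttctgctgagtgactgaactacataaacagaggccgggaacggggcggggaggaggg

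In the full window of 250 bases before the start, both strands searched, CCAAT was present in 21 of the members' 32 promoter entries (65.6%) and in 32.0% of all 34943 RefSeq promoters. It was found in all 10 of the genes with an entry that fell under EZ in WT, in all 3 of those that rose, and in 6 of the 12 that did neither. TCACNCCAC was present in 0.881% of all promoters and in 1 member, SREBF2. CACCCCAC, which lies within TCACNCCAC where N is C, was present in 2.43% of all promoters and in SREBF2 and ABCA1. The E-box CACGTG was found in 6.32% of all promoters and in INSIG1, SCAP, SC5D and ABCA1, and the direct repeat with 4 spacer bases that LXRs bind (DR4) in 0.0487% and in 0 members. These are matches of letters within these windows only.

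Under EZ much of the synthesis route was lower and ABCG1 and MYLIP were higher in both genotypes. In these bulk libraries fewer cells of a kind and less RNA per cell cannot be told apart. In WT, 12 of the 30 genes fell and 4 rose at an adjusted p below 0.05 in a fit that paired DMSO and EZ libraries of the same number (edgeR's quasi-likelihood test, Benjamini-Hochberg over all genes). Of the 21810 genes tested, 12.1% passed, 7.67% higher and 4.44% lower. In DKO, 10 members fell and 3 rose, against 7.75% of all genes, 4.63% higher and 3.12% lower. The same 10 genes fell in both genotypes (MVK, MVD, FDPS, FDFT1, SQLE, LSS, HSD17B7, DHCR7, SREBF2 and INSIG1) and the same 3 rose (TM7SF2, ABCG1 and MYLIP). HMGCS1 and IDI1 passed as lower and NPC2 as higher in WT alone, and none of these 3 differences between genotypes passed the test of the difference itself. The members' median log2 change was -0.44 in WT and -0.41 in DKO, and over all tested genes -0.02 in WT and 0.00 in DKO. Without pairing, 9 members fell and 1 rose in WT, where 3.32% of all genes passed (2.25% higher, 1.07% lower). In DKO 2 members fell and 2 rose without pairing, where 1.48% of all genes passed (1.03% higher, 0.445% lower).

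**Figure D1:**
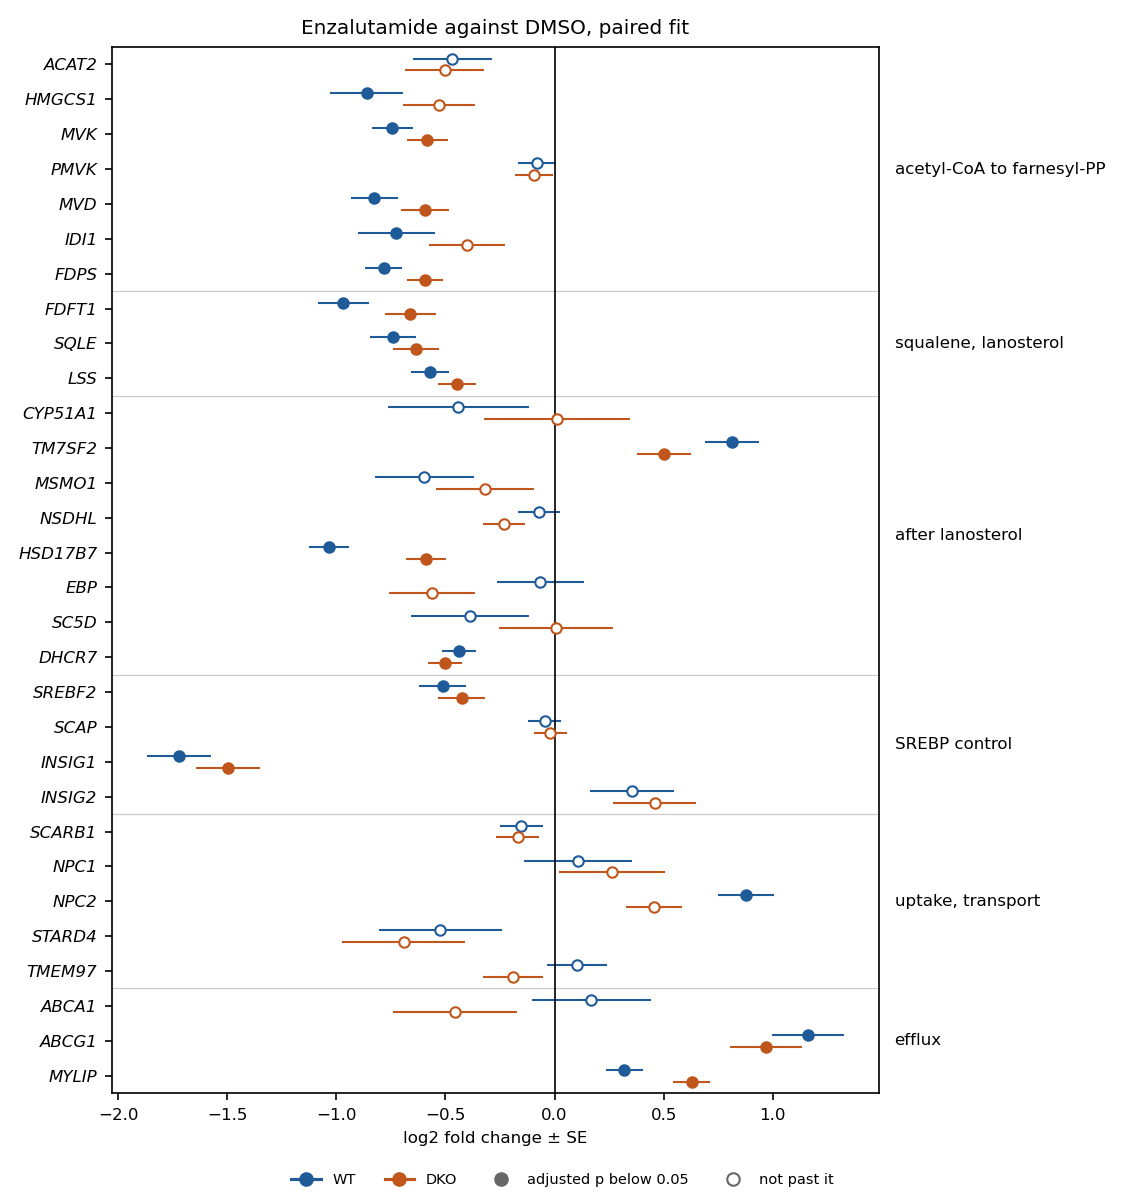
Change of each of the 30 genes under EZ, as log2 fold change ± SE on the x axis, in WT (blue) and DKO (orange), grouped by role. Filled points passed an adjusted p of 0.05. INSIG1 lies farthest left in both genotypes (-1.72 and -1.50) and ABCG1 farthest right (1.16 and 0.97).

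Early enzymes, from acetyl-CoA to farnesyl pyrophosphate, were lower under EZ in both genotypes for all 7 genes by sign, and 5 passed in WT and 3 in DKO. The fit without pairing called 4 of them lower in WT and 0 in DKO. HMGCS1, which condenses acetyl-CoA units into HMG-CoA, stood at 145, 199, 209 and 357 CPM in replicates 1 to 4 of WT in DMSO and at 113, 119, 114 and 129 CPM in EZ. In DKO it stood at 129, 169, 177 and 152 CPM in DMSO and at 120.0, 103, 97.3 and 112 CPM in EZ. The groups did not overlap in either genotype, and WT DMSO replicate 4 was the highest library. The log2 change of HMGCS1 was -0.86 ± 0.17 (SE, adjusted p = 0.00941) in WT and -0.53 ± 0.17 (adjusted p = 0.0832) in DKO. Its WT change was -1.46 in pair 4, and -0.65 in the fit without WT replicate 4 (adjusted p = 0.00971).

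MVD, which makes isopentenyl pyrophosphate by decarboxylation, stood at 14.9, 14.2, 17.2 and 22.1 CPM in WT DMSO and at 9.2, 8.18, 8.04 and 13.4 CPM in WT EZ. In DKO its values were 10.3, 12.4, 13.5 and 11.9 CPM in DMSO and 7.54, 7.89, 8.32 and 7.99 CPM in EZ. Every EZ library lay below every DMSO library of its genotype. MVD fell by 0.83 ± 0.11 on the log2 scale in WT (adjusted p = 0.00063) and by 0.59 ± 0.11 in DKO (adjusted p = 0.00756; 0.0586 without DKO replicate 3). MVK, the mevalonate kinase, changed by -0.74 in WT and -0.58 in DKO, and FDPS, which joins isoprene units into farnesyl pyrophosphate, by -0.78 and -0.59. IDI1, the isomerase of isopentenyl pyrophosphate, changed by -0.73 in WT (adjusted p = 0.0276) and -0.40 in DKO (adjusted p = 0.202). Its WT fall was -1.60 in pair 4 and -0.35 to -0.57 in the other pairs. Without WT replicate 4 the IDI1 change was -0.43 (adjusted p = 0.00318), and without WT replicate 2 the adjusted p was 0.0725. With replicate 1 of both genotypes and treatments left out, the WT change of IDI1 was -0.85 (adjusted p = 0.0586). ACAT2, which joins acetyl-CoA units at the head of the route, changed by -0.47 in WT and -0.50 in DKO (adjusted p = 0.127 and 0.124). PMVK, the phosphomevalonate kinase, changed by -0.08 and -0.10. In these genes the counts of ACAT2 are uncertain, since it overlaps opposite-strand genes and the strand setting of the counting is not known. In GENCODE v29, 26.5% of its exonic bases are shared with SOD2, 33.9% with SOD2-OT1 and 9.23% with TCP1. Group means of TCP1 were 356 to 452 CPM, beside at most 0.70 CPM for this SOD2 entry and 2.68 CPM for SOD2-OT1. IDI1 and FDPS shared 14.8% and 18.6% with antisense genes. FDPS and HSD17B7 also have pseudogene copies that could share reads.

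All 3 enzymes from farnesyl pyrophosphate to lanosterol fell in both genotypes. The fit without pairing called all 3 in WT and 0 in DKO (adjusted p in DKO 0.13 for FDFT1, 0.11 for SQLE and 0.175 for LSS). FDFT1, the squalene synthase that commits the route to sterols, stood at 449, 515, 517 and 953 CPM in WT DMSO and at 300.1, 277, 248 and 378 CPM in WT EZ. In DKO its values were 261, 300.3, 336 and 330.2 CPM in DMSO and 189, 161, 194 and 235 CPM in EZ. The treatments did not overlap in either genotype, while WT EZ and DKO DMSO overlapped (means 301 and 307 CPM). FDFT1 fell by 0.97 ± 0.12 in WT (adjusted p = 0.000406) and by 0.66 ± 0.12 in DKO (adjusted p = 0.00601).

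SQLE, the epoxidase of the first oxygen-dependent step, stood at 102, 121, 122 and 218 CPM in WT DMSO and at 68.2, 81.5, 80.0 and 94.2 CPM in WT EZ. In DKO SQLE gave 87.7, 116, 117 and 124 CPM in DMSO and 62.8, 70.1, 70.6 and 81.0 CPM in EZ. Again no EZ library reached the lowest DMSO library of its genotype. SQLE fell by 0.74 ± 0.10 in WT (adjusted p = 0.00108) and 0.64 ± 0.10 in DKO (adjusted p = 0.00416). Its WT change was -1.21 in pair 4 and -0.61 to -0.57 in the other pairs. LSS, which closes the ring to lanosterol, fell by 0.57 ± 0.09 in WT (adjusted p = 0.00171) and by 0.45 ± 0.09 in DKO (adjusted p = 0.00977; lost without DKO replicate 2 or 3, up to 0.0691).

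The 8 genes after lanosterol did not move as 1 block: HSD17B7 and DHCR7 fell, TM7SF2 rose, and 5 passed in neither genotype. HSD17B7 (ENSG00000132196, chr1:162790702-162812817), a sterol ketoreductase, stood at 33.1, 34.2, 35.1 and 36.9 CPM in WT DMSO against 17.3, 15.1, 17.9 and 17.8 CPM in EZ. In DKO HSD17B7 stood at 19.1, 26.6, 23.3 and 28.6 CPM in DMSO and 14.8, 17.1, 14.5 and 18.1 CPM in EZ. The treatments did not overlap in either genotype, and in DMSO no DKO library reached a WT library. Its change was -1.03 ± 0.09 in WT (adjusted p = 7.59e-05) and -0.59 ± 0.09 in DKO (adjusted p = 0.00294), and both passed without pairing as well (adjusted p = 0.000284 and 0.0272).

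TM7SF2 (ENSG00000149809, chr11:65111845-65116384), a sterol C14 reductase, moved the other way. It stood at 139, 139.6, 138 and 209 CPM in WT DMSO and at 344, 229, 216 and 315 CPM in WT EZ. In DKO it stood at 58.8, 71.2, 89.0 and 127 CPM in DMSO and at 103, 110.0, 116 and 146 CPM in EZ. Every pair rose in both genotypes, with the DKO ranges overlapping. TM7SF2 rose by 0.81 ± 0.12 in WT (adjusted p = 0.00178) and by 0.50 ± 0.12 in DKO (adjusted p = 0.0306; lost without DKO replicate 1, 2 or 3, up to 0.147). Without pairing it passed in neither (adjusted p = 0.0523 and 0.393). Leaving out WT replicate 1 gave a TM7SF2 change of 0.68 in WT (adjusted p = 0.00186).

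DHCR7, which makes cholesterol in the last step of the Kandutsch-Russell branch, fell by 0.44 ± 0.08 in WT and by 0.50 ± 0.08 in DKO (adjusted p = 0.00399 and 0.0031). The groups overlapped and the fall was within pairs, in 4 of 4 in each genotype. DHCR7 passed in neither genotype without pairing (adjusted p = 0.31 and 0.296). MSMO1, the C4 methyl oxidase, changed by -0.60 in WT and -0.32 in DKO, and SC5D, a sterol desaturase, by -0.39 and 0.01. For both genes WT pair 4 had the largest fall, at -1.42 for MSMO1 and -1.60 for SC5D, while the other WT pairs ranged from -0.46 to -0.09 and from -0.16 to 0.26. Without WT replicate 4 the WT change was -0.32 for MSMO1 and 0.01 for SC5D, neither past the threshold. NSDHL, which removes the carboxyl group at C4, changed by -0.07 and -0.23, and EBP, the sterol isomerase, by -0.07 and -0.56 (adjusted p = 0.87 and 0.116). CYP51A1, the lanosterol demethylase, was counted at 0.509 to 1.99 CPM, and 79.4% of its exonic bases are shared on the same strand with another GENCODE v29 gene, AC000120.2, itself at 0 counts in all libraries. Its low counts are therefore uncertain.

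Among the genes that control SREBPs, INSIG1 and SREBF2 fell while SCAP and INSIG2 did not pass. INSIG1 (ENSG00000186480, chr7:155297776-155310235 on GRCh38, GENCODE v29) retains SREBPs and is itself one of their targets. It stood at 303, 537, 542 and 974 CPM in WT DMSO and at 125, 151, 166 and 233 CPM in WT EZ. In DKO it stood at 208, 336, 384 and 429 CPM in DMSO and at 103, 104, 106 and 161 CPM in EZ. Every EZ library lay below every DMSO library of its genotype, and in all 4 groups the lowest library was number 1 and the highest number 4. INSIG1 changed by -1.72 ± 0.15 in WT (adjusted p = 8.73e-05) and -1.50 ± 0.15 in DKO (adjusted p = 0.000614), the largest change of any member in either genotype. It passed without pairing too (adjusted p = 0.00502 and 0.024).

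**Figure D2:**
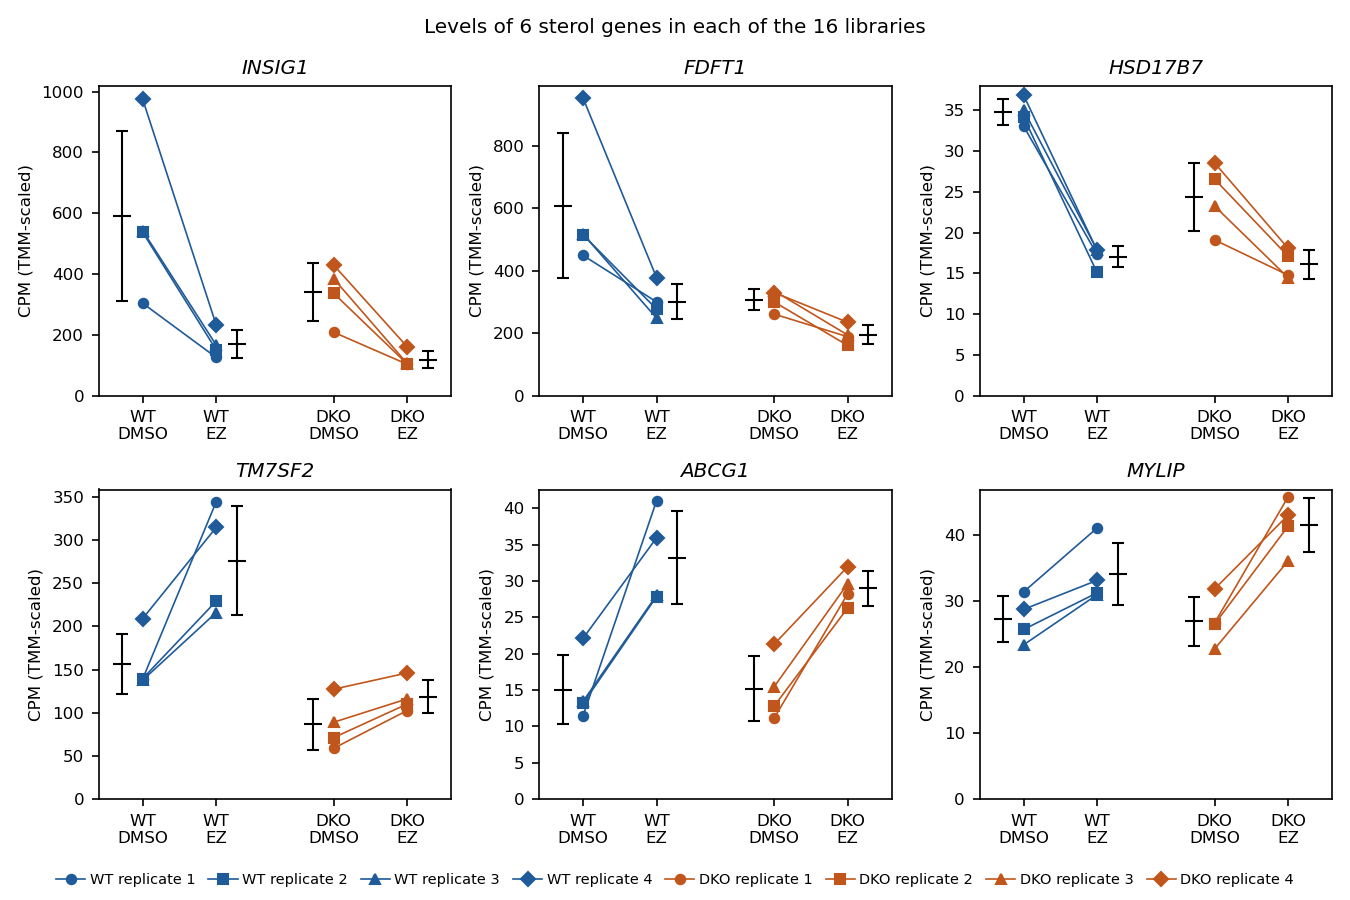
Levels of 6 genes in each library, as TMM-scaled CPM on linear axes from 0; lines join DMSO and EZ libraries of the same number, and black bars give mean ± SD of 4 libraries. INSIG1, FDFT1 and HSD17B7 fall and TM7SF2, ABCG1 and MYLIP rise in all 8 pairs.

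INSIG2, a second retention protein that is not an SREBP target, stood at 34.9, 37.4, 36.6 and 75.0 CPM in WT DMSO and 65.8, 55.3, 50.6 and 52.0 CPM in WT EZ. In DKO INSIG2 stood at 38.9, 44.5, 34.2 and 59.6 CPM in DMSO and 59.3, 58.4, 50.7 and 71.9 CPM in EZ. It was higher under EZ in 7 of 8 pairs, WT pair 4 being the exception with a change of -0.53. The change was 0.35 ± 0.19 in WT (adjusted p = 0.27) and 0.46 ± 0.19 in DKO (adjusted p = 0.181), and without WT replicate 4 both passed, at 0.65 in WT (adjusted p = 0.00163) and 0.45 in DKO (adjusted p = 0.00665). SREBF2 stood at 262, 330.5, 348 and 459.9 CPM in WT DMSO and at 241, 223, 219 and 284 CPM in WT EZ. Its DKO values were 192, 223, 262 and 300.4 CPM in DMSO and 176, 171, 179 and 193 CPM in EZ. The ranges overlapped, by WT EZ replicate 4 in WT and by replicate 4 of DKO in EZ against DMSO replicate 1. SREBF2 fell by 0.51 ± 0.11 in WT and by 0.43 ± 0.11 in DKO (adjusted p = 0.0102 and 0.0338), in 4 of 4 pairs each, but the call was lost without WT replicate 2 or 3 (adjusted p up to 0.0629) and without DKO replicate 2, 3 or 4 (up to 0.158). SREBF2 passed in neither genotype without pairing (adjusted p = 0.0786 and 0.202). SCAP changed by -0.05 and -0.02.

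Of the 5 uptake and transport genes, 0 passed as lower in either genotype, and 1 passed as higher, in WT. That was NPC2, the soluble lysosomal protein that hands cholesterol to NPC1. NPC2 stood at 12.3, 26.9, 29.8 and 50.2 CPM in WT DMSO and at 33.2, 50.8, 49.9 and 68.6 CPM in WT EZ. In DKO it stood at 12.8, 16.6, 35.1 and 44.3 CPM in DMSO and at 20.2, 21.7, 45.3 and 59.6 CPM in EZ. The libraries differed more by replicate number than by treatment, and all 8 pairs rose. NPC2 rose by 0.88 ± 0.13 in WT (adjusted p = 0.00137; 0.494 without pairing), and in DKO the change was 0.46 ± 0.13 (adjusted p = 0.0504). NPC1, the membrane exporter of lysosomal cholesterol, changed by 0.11 ± 0.25 in WT and 0.26 ± 0.24 in DKO. Its WT pairs ran from 0.89 in pair 1 to -0.94 in pair 4, and without WT replicate 4 the NPC1 change was 0.45 in WT with an adjusted p of 0.0279. SCARB1, the receptor for high-density lipoprotein, changed by -0.15 and -0.17, and TMEM97, a sterol-responsive protein that binds NPC1, by 0.10 and -0.19. STARD4, a cytosolic sterol carrier, changed by -0.52 ± 0.28 in WT and -0.69 ± 0.28 in DKO (adjusted p = 0.283 and 0.193). Its WT pair 1 rose by 0.55 while the other 7 pairs fell, and without WT replicate 1 the WT change was -0.84 with an adjusted p of 0.0121.

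Of the 3 efflux genes, ABCG1 and MYLIP rose in both genotypes and ABCA1 in neither. ABCG1 (ENSG00000160179, chr21:42199689-42297244) exports cholesterol to lipoprotein particles. It stood at 11.5, 13.2, 13.5 and 22.1 CPM in WT DMSO and at 41.1, 27.9, 28.1 and 36.0 CPM in WT EZ. In DKO it stood at 11.1, 12.8, 15.4 and 21.3 CPM in DMSO and at 28.2, 26.3, 29.6 and 32.0 CPM in EZ. The treatments did not overlap in either genotype, and in DMSO the difference of DKO from WT was 0.01 ± 0.21. ABCG1 rose by 1.16 ± 0.17 in WT (adjusted p = 0.00142) and by 0.97 ± 0.17 in DKO (adjusted p = 0.00593), and both passed without pairing (adjusted p = 0.00769 and 0.0396).

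MYLIP (ENSG00000007944, chr6:16129125-16148248) stood at 31.3, 25.7, 23.3 and 28.7 CPM in WT DMSO and at 41.0, 31.2, 30.9 and 33.1 CPM in WT EZ. In DKO it stood at 26.6, 26.5, 22.7 and 31.8 CPM in DMSO and at 45.7, 41.3, 36.0 and 42.9 CPM in EZ. Only the DKO groups were free of overlap. MYLIP rose by 0.63 ± 0.08 in DKO (adjusted p = 0.00147; 0.027 without pairing). In WT it rose by 0.32 ± 0.08 (adjusted p = 0.0293), a call lost in 5 of the 8 fits that left out a pair (WT 1, 2 or 3, DKO 2 or 3; adjusted p up to 0.105) and without pairing (0.24). ABCA1, the exporter to lipid-poor apolipoproteins, stood at 11.8, 16.6, 14.0 and 15.1 CPM in WT DMSO and at 6.98, 20.6, 18.9 and 22.5 CPM in WT EZ. In DKO ABCA1 stood at 7.6, 9.68, 12.5 and 8.44 CPM in DMSO and at 2.34, 8.83, 10.5 and 8.16 CPM in EZ. Both EZ replicate 1 libraries were the lowest of their genotype, and both are among the libraries low in mitosis markers. ABCA1 changed by 0.17 ± 0.27 in WT and -0.46 ± 0.28 in DKO (adjusted p = 0.745 and 0.376). With replicate 1 left out in both genotypes and treatments, the WT change was 0.45 (adjusted p = 0.0194) and the DKO change -0.15 (adjusted p = 0.511).

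To set synthesis and uptake beside efflux in each library, log2 CPM was centred per gene and averaged over the 18 enzymes, 5 uptake genes and INSIG1 (24 genes) and over ABCA1, ABCG1 and MYLIP. In WT the 24-gene mean was 0.38 ± 0.34 (SD, n = 4) with DMSO and -0.04 ± 0.15 with EZ, and in DKO it was 0.00 ± 0.22 and -0.35 ± 0.20. The efflux mean was -0.12 ± 0.18 and 0.42 ± 0.16 in WT, and -0.33 ± 0.19 and 0.03 ± 0.30 in DKO. Their difference was 0.34 to 0.74 in WT DMSO and 0.26 to 0.38 in DKO DMSO, and -0.54 to -0.33 and -0.57 to -0.15 in EZ. All 8 DMSO libraries were above 0 and all 8 EZ libraries below. Within pairs the difference changed by -0.68, -0.95, -1.06 and -1.18 in WT and by -0.41, -0.89, -0.95 and -0.60 in DKO. No test is given, since the members were chosen with results known. The pairs with the smallest change, number 1 in each genotype, were among those with high RN7SL1. This noncoding RNA stood apart in 6 libraries (2201 to 6207 CPM on unscaled totals against 481 to 1166). DKO pair 2 was also high in RN7SL1 and changed by -0.89, while DKO pair 4 was not high and changed by -0.60. The part of RN7SL1 in the change was not tested. Without pair 1 the mean change was -1.06 in WT and -0.81 in DKO.

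**Figure D3:**
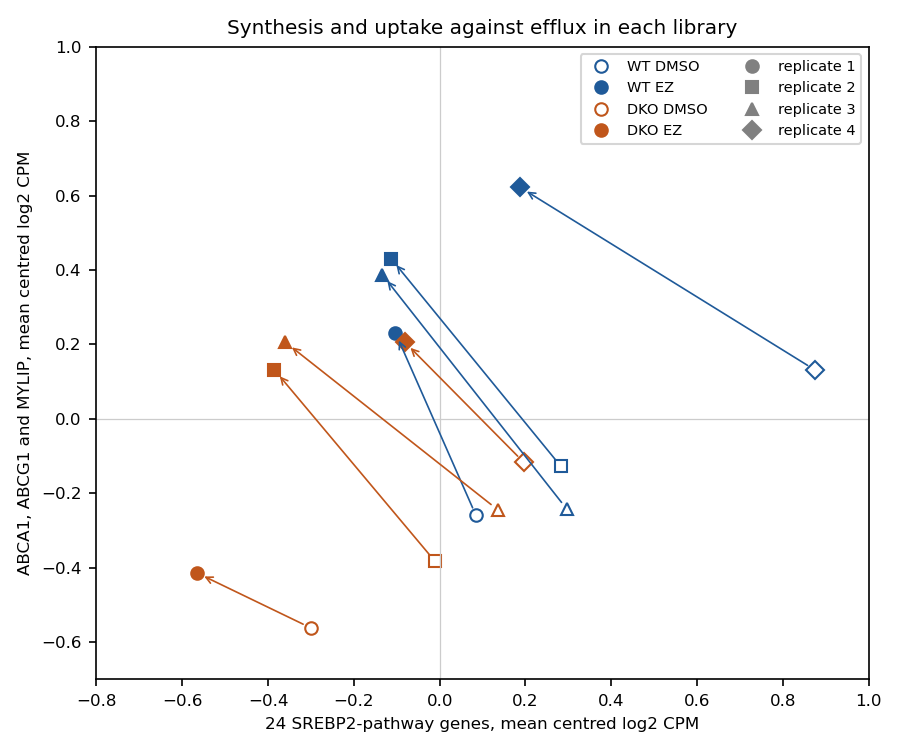
Mean centred log2 CPM of the 24 synthesis, uptake and INSIG1 genes (x axis) against that of ABCA1, ABCG1 and MYLIP (y axis) for each library; open symbols are DMSO, filled symbols EZ, and arrows join pairs. All 8 arrows point left and up; WT DMSO replicate 4 lies farthest right, at 0.87.

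The effect of EZ was not shown to differ between the genotypes for any member. The interaction, which takes the WT change from the DKO change, passed for 0 of 30 members by edgeR, for 0 by DESeq2 and for 0 without pairing. Over all genes 0.179% passed (0.055% higher, 0.124% lower), and 0% without pairing. At an unadjusted p below 0.05 there were 3 members. HSD17B7 had an interaction of 0.44 ± 0.13 (unadjusted p = 0.00458, adjusted p = 0.264), its fall being the smaller one in DKO. MYLIP had 0.31 ± 0.12 (adjusted p = 0.428), and NPC2 -0.42 ± 0.18 (adjusted p = 0.481). For 18 of 30 members the change was smaller in size in DKO than in WT.

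Between genotypes, the share of members past the threshold was near that of all genes, and with TMM scaling all that passed were lower in DKO. In DMSO, 6 members were lower (FDFT1, TM7SF2, HSD17B7, SREBF2, SCARB1 and NPC1), a share of 20% where 18.6% of all genes passed, 8.91% higher and 9.7% lower. In EZ, 7 were lower (FDFT1, TM7SF2, NSDHL, SCARB1, NPC1, STARD4 and ABCA1), or 23.3%, where 20.7% of all genes passed, 9.29% higher and 11.4% lower. At an unadjusted p below 0.05, 1 member was higher in DMSO (EBP, 0.45 ± 0.19) and 1 in EZ (MYLIP, 0.28 ± 0.13). DESeq2 called 0 members higher in either treatment. Summed fibroblast markers, mostly COL1A1, were also higher in DKO (27.1 to 52.1 CPM against 15.3 to 22.3). Of these markers COL1A1 and LUM passed the threshold, while COL1A2 and DCN were near 0 in both genotypes. The luminal markers KLK3 (-3.48 ± 0.64 in DMSO, -4.07 ± 0.69 in EZ) and TMPRSS2 (-3.22 ± 0.42 and -3.10 ± 0.42) were lower in DKO. The part of either marker list in these differences was not tested. The members' median was -0.43 in DMSO and -0.20 in EZ, beside -0.06 and -0.01 over all genes. These comparisons depend on scaling: with unscaled library totals the median of all genes shifted to 0.14 and 0.23, the members' medians became -0.20 and 0.05, and 4 and 3 members were lower, with 1 higher in each treatment. With upper-quartile scaling the EZ medians were 0.10 for all genes and -0.08 for the members, and 6 members were lower and 1 higher. The share of all genes past the threshold was not taken under these other scalings.

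**Figure D4:**
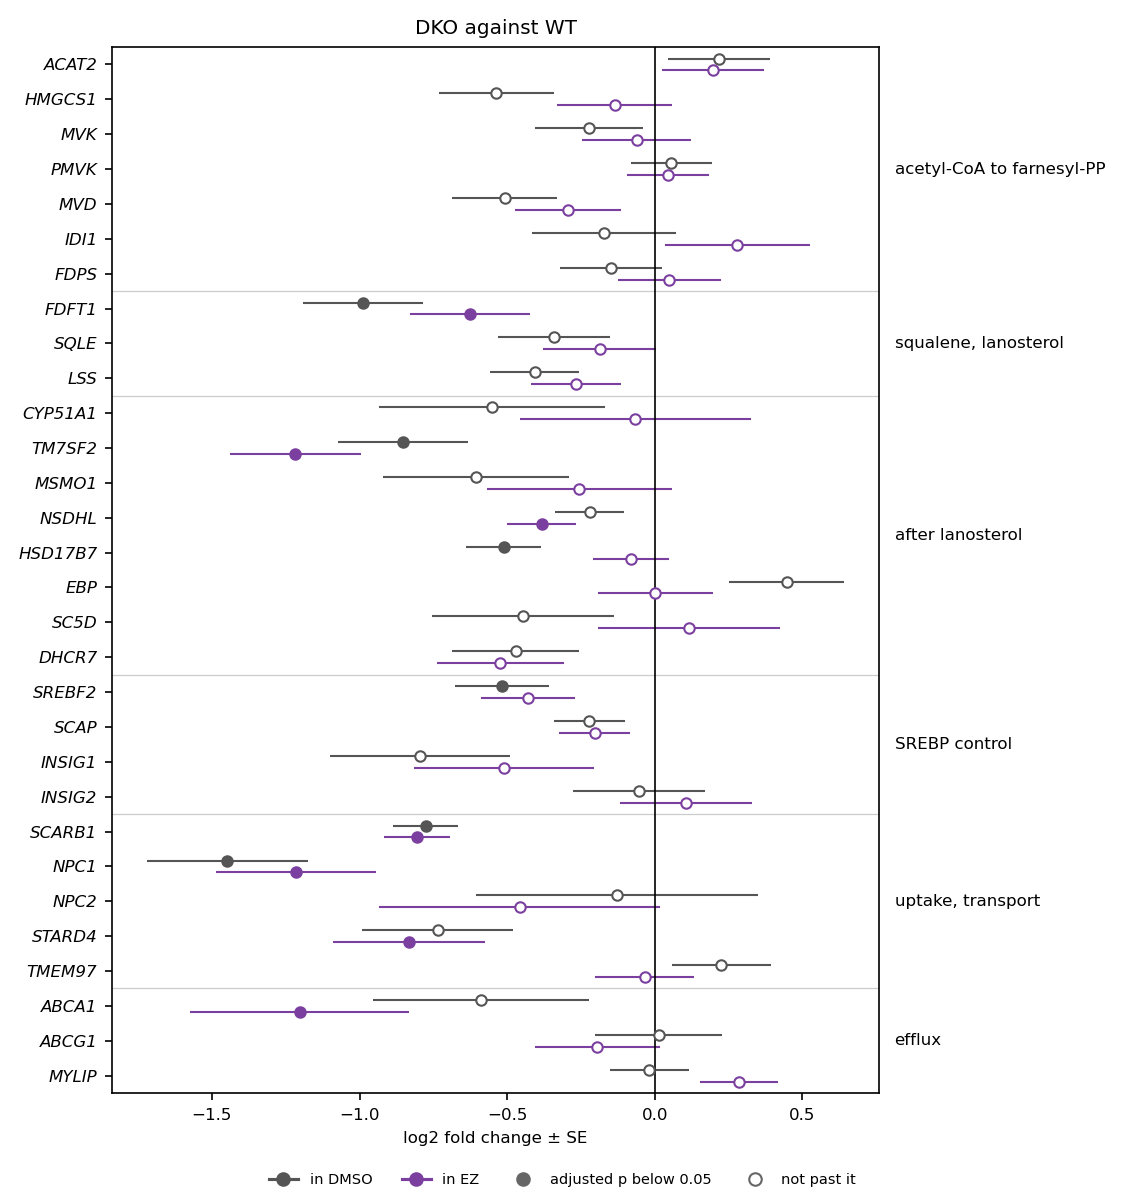
Difference of DKO from WT for each of the 30 genes, as log2 fold change ± SE, in DMSO (grey) and in EZ (purple); filled points passed an adjusted p of 0.05. FDFT1, TM7SF2, SCARB1 and NPC1 are filled in both treatments, and NPC1 in DMSO lies farthest left at -1.45.

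The 4 genes lower in both treatments span synthesis and uptake. NPC1 stood at 276, 240.0, 238 and 593 CPM in WT DMSO against 115, 120.1, 118 and 141 CPM in DKO DMSO. In EZ it stood at 513, 307, 255 and 309 CPM in WT against 140.3, 137, 131 and 188 CPM in DKO. No DKO library reached a WT library, and WT DMSO replicate 4 and WT EZ replicate 1 were the highest. NPC1 differed by -1.45 ± 0.27 in DMSO (adjusted p = 0.00129) and -1.21 ± 0.27 in EZ (adjusted p = 0.00417), and the call held with any 1 library left out. SCARB1, given in full after its values were seen, stood at 93.2, 82.9, 95.1 and 81.8 CPM in WT DMSO and 45.7, 57.7, 58.9 and 43.8 CPM in DKO DMSO. In EZ SCARB1 stood at 74.7, 77.0, 76.0 and 89.9 CPM in WT and 44.1, 45.6, 47.0 and 44.9 CPM in DKO. These ranges did not overlap either. The difference was -0.78 ± 0.11 in DMSO (adjusted p = 9.19e-05) and -0.81 ± 0.11 in EZ (adjusted p = 6.37e-05). TM7SF2, whose values are given above, differed by -0.85 ± 0.22 in DMSO (adjusted p = 0.0118; lost without WT DMSO replicate 4 or DKO DMSO replicate 1 or 2, up to 0.0587) and -1.22 ± 0.22 in EZ (adjusted p = 0.000861). FDFT1 differed by -0.99 ± 0.20 in DMSO (adjusted p = 0.00236) and -0.63 ± 0.20 in EZ (adjusted p = 0.0362), and the EZ call was lost in 12 of 16 fits that left out 1 library (adjusted p up to 0.169), holding without WT DMSO replicate 1, 3 or 4 or WT EZ replicate 3.

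The remaining differences were called in 1 treatment, and whether they differ between treatments is the interaction given above. HSD17B7 differed by -0.51 ± 0.13 in DMSO (adjusted p = 0.00855; lost without DKO DMSO replicate 1 or 3, up to 0.0589) and by -0.08 ± 0.13 in EZ. SREBF2 differed by -0.52 ± 0.16 in DMSO (adjusted p = 0.0303), a call lost in 13 of 16 fits with 1 library left out (up to 0.169, without WT DMSO replicate 4; it held without WT DMSO replicate 1, DKO DMSO replicate 4 or WT EZ replicate 4), and by -0.43 ± 0.16 in EZ (adjusted p = 0.0665; 0.0339 without WT DMSO replicate 4). STARD4 stood at 37.9, 63.9, 71.3 and 113 CPM in WT DMSO and 28.6, 43.9, 43.6 and 55.2 CPM in DKO DMSO. In EZ STARD4 stood at 55.4, 43.6, 43.2 and 45.0 CPM in WT and 26.9, 23.0, 22.2 and 32.8 CPM in DKO, where the genotypes did not overlap. It differed by -0.83 ± 0.26 in EZ (adjusted p = 0.0292; lost without DKO DMSO replicate 2 or 3, WT EZ 1 or 4, or DKO EZ 1, 2 or 3, up to 0.112) and by -0.74 ± 0.25 in DMSO (adjusted p = 0.0542). ABCA1 differed by -1.20 ± 0.37 in EZ (adjusted p = 0.0295; lost without DKO DMSO replicate 2, WT EZ 2, 3 or 4, or DKO EZ 2 or 4, up to 0.105) and by -0.59 ± 0.37 in DMSO (adjusted p = 0.302). Leaving out both EZ replicate 1 libraries, a choice made after seeing the data, gave ABCA1 -1.16 in EZ (adjusted p = 0.000721) and -0.55 in DMSO (adjusted p = 0.0283). NSDHL stood at 23.8, 23.7, 22.4 and 25.6 CPM in WT EZ and 18.4, 17.5, 18.6 and 18.7 CPM in DKO EZ, without overlap. Its difference was -0.38 ± 0.12 in EZ (adjusted p = 0.0269), lost in 12 of 16 fits with 1 library left out (up to 0.147), holding without WT DMSO replicate 1, 3 or 4 or WT EZ replicate 3. INSIG1, the member with the largest drug change, differed by -0.79 ± 0.30 in DMSO (adjusted p = 0.0839; 0.0251 without WT DMSO replicate 1) and -0.51 ± 0.30 in EZ (adjusted p = 0.275).

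Neighbouring pathways were read from lists of genes that hold no member. Of 10 genes of fatty acid synthesis and desaturation that SREBP1 controls, 7 fell under EZ in WT and 6 in DKO. SCD, the stearoyl-CoA desaturase, fell by 1.14 ± 0.19 in WT and 0.74 ± 0.18 in DKO, and LPIN1, a phosphatidate phosphatase, by 1.06 ± 0.15 in WT. In DKO the largest falls of the list were FADS2, a fatty acid desaturase, at -0.94 ± 0.16, and FASN, the fatty acid synthase, at -0.79 ± 0.15. The list's median change was -0.64 in WT and -0.61 in DKO. Without pairing 5 fell in WT and 3 in DKO. Of 9 tested genes of the LXR pathway, 3 rose in WT and 2 in DKO, and none fell. RXRA, the partner of LXRs, rose by 0.70 ± 0.07 in WT and 0.58 ± 0.07 in DKO. LPCAT3, a phospholipid acyltransferase, rose in WT by 0.60 ± 0.12 and had 0.16 ± 0.12 in DKO (adjusted p = 0.431), a difference that did not pass (adjusted p = 0.418). The LXR genes themselves did not pass: NR1H3 changed by -0.16 in WT and -0.30 in DKO, and NR1H2 by 0.16 and 0.25.

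Other branches changed little under EZ. Of 13 genes that process or degrade SREBPs, ERLIN1, an endoplasmic reticulum scaffold, rose in WT (0.30 ± 0.08) and 0 passed in DKO. Of 17 tested genes of cholesterol esterification and transport, GRAMD1A, a sterol transporter at membrane contacts, rose in WT (0.47 ± 0.10) and 0 passed in DKO. Of 15 isoprenoid genes, which draw on the same mevalonate route, DHDDS, a subunit of the dolichol-making prenyltransferase, rose (0.40 ± 0.10) and FNTA, a prenyltransferase subunit, fell (-0.27 ± 0.08) in WT. Of 6 tested genes of oxysterol and steroid formation, 0 passed by edgeR in either genotype.

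Between genotypes the lists differed in their directions. Of the 13 genes that process or degrade SREBPs, 0 were higher and 5 lower in DKO in DMSO, and 0 higher and 3 lower in EZ. SREBF1, which encodes SREBP1, differed in DKO by -0.67 ± 0.14 in DMSO and -0.65 ± 0.14 in EZ, and RNF145, a ligase acting on SCAP, by -0.59 ± 0.13 and -0.65 ± 0.13. Among esterification and transport genes, 3 were higher and 5 lower in DMSO, and 3 higher and 4 lower in EZ. GRAMD1C was higher by 0.81 ± 0.19 in DMSO and 0.74 ± 0.19 in EZ, and LRP1, a lipoprotein receptor, by 0.54 ± 0.11 and 0.67 ± 0.11. OSBPL5, a lipid transfer protein, was lower, at -0.56 ± 0.14 and -0.86 ± 0.14. Of the 9 tested genes of the LXR pathway, 1 was higher and 2 lower in DKO in each treatment. SMPDL3A, an LXR target, was among the lower ones, at -0.67 ± 0.18 and -0.59 ± 0.18. Of the 10 SREBP1-controlled genes, 1 was higher and 6 lower in DMSO, and 1 higher and 4 lower in EZ. FASN was lower, at -0.89 ± 0.19 and -1.19 ± 0.19 and FADS1, a desaturase, was higher by 0.73 ± 0.19 and 0.86 ± 0.19.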

How the data were processed

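RNA of 16 LNCaP libraries was sequenced after ribosomal RNA depletion. The authors deposited 1 table of raw counts (whole reads per Ensembl identifier) for each library. STAR 2.7.3a and GRCh38 are named in the submitters' processing notes, with the counting tool, strand setting and annotation release not given in the sources used here. Symbols came from a gene table (60357 of 60676 identifiers matched) and overlaps from GENCODE v29.

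In R 4.3.3, edgeR 4.0.16 was used on these counts with filterByExpr (minimum count 10, minimum total 15; 21810 genes), TMM scaling, robust quasi-likelihood F-tests and Benjamini-Hochberg adjustment at 0.05. Drug effects and their interaction came from a fit of all libraries with the replicate number nested in genotype as a block (6 residual degrees of freedom), and genotype effects from 1 mean per group (12 degrees). Same-numbered DMSO and EZ libraries deviated together, with correlations of 0.33 to 0.66 in all 8 pairs. Different numbers ran from -0.57 to 0.51, and the pairing rests on this check of the data. WT DMSO replicate 2 was closer to WT EZ replicate 3 (0.51) than to WT EZ replicate 2 (0.33). For that library the check does not single out the partner of the same number. Across genotypes replicates 1, 3 and 4 correlated at 0.23 to 0.67 and replicate 2 at -0.07 in DMSO and -0.05 in EZ, so numbers were not taken to pair genotypes. Replicates differed beyond sampling noise (chi-square per degree of freedom 5.37 to 104), so all were kept. Alternatives were DESeq2 1.42.0, other scalings, no filter, other blocks and left-out libraries. The fits were tested on simulated data. The lowest count of any member was 10 (CYP51A1), and counts limit precision only for such genes. Mean levels used log2 CPM with a prior count of 2.

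The members and lists were chosen with earlier results of these data known. Per-library values are given for INSIG1, INSIG2, SREBF2, the 3 efflux genes and, per role, the 2 members at 5 CPM or more with the largest changes past the threshold under EZ and between genotypes. Of the other lists, up to 2 genes each way at 1 CPM or more are named. Some genes of these lists are counted but not reported here by name.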

Additional observations from a re-analysis of the deposited data

Results flagged for a closer look

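A library was marked where its gap to the nearest of the other 3 in its group was, as a share of the group's range, above Dixon's critical value; this was done for 132 sets of 4 values, of which 15 were marked, and chance marks about 1 in 20. WT DMSO replicate 4 was the stray library 6 times: IDI1 at 228 CPM (others 91.2 to 105), FDFT1 at 953 (449 to 517), TM7SF2 at 209 (138 to 139.6), SC5D at 579 (169 to 233), INSIG2 at 75.0 (34.9 to 37.4) and NPC1 at 593 (238 to 276). It was high each time, and was also the WT DMSO library lowest in mitosis markers, whose part was not tested. Replicate 4 was the high library in WT EZ for FDPS at 39.1 CPM (26.0 to 28.1) and SCARB1 at 89.9 (74.7 to 77.0), in DKO DMSO for SC5D at 319 (178 to 189.9), and in DKO EZ for INSIG1 at 161 (103 to 106) and NPC1 at 188 (131 to 140.3). The 24-gene mean of WT EZ replicate 4 was 0.19 (others -0.13 to -0.10). Replicate 1 was high for EBP in WT DMSO at 30.9 CPM (18.1 to 19.4) and STARD4 in WT EZ at 55.4 (43.2 to 45.0). The efflux mean of DKO EZ replicate 1 was -0.41 (others 0.13 to 0.21), the library where ABCA1 was 2.34 CPM.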

How the results depend on the processing

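No member's direction reversed past the threshold under any alternative run. The fit with no replicate block gave 9 lower and 1 higher members in WT and 2 lower and 2 higher in DKO, against 12, 4, 10 and 3 in the paired fit. A replicate block shared by both genotypes gave 12 and 3 in WT, 10 and 2 in DKO, and between genotypes 12 lower in DMSO, 12 lower in EZ and 1 higher in EZ. Same-numbered libraries correlated across genotypes above 0.1 in 6 of 8 cases, replicate 2 being the exception, so this block was kept as an alternative only. With no low-count filter 17 members fell and 5 rose in DKO under EZ, and 3 were lower in DKO than in WT in each treatment. Unscaled totals gave 1 member higher in DMSO, and 3 lower and 1 higher in EZ; upper-quartile scaling gave 1 higher in EZ. Leaving out both EZ replicate 1 libraries, chosen after seeing the data, gave 4 lower in EZ. For every alternative here other than the fit with no replicate block, the share of all genes past the threshold was not taken. Changes in these counts may therefore not be particular to the members. The causes were not tested. With 1 pair left out, 10 to 13 members fell and 3 to 6 rose in WT, and 7 to 13 fell and 2 to 5 rose in DKO. With 1 library left out, 3 to 10 were lower and 0 to 1 higher in DKO in DMSO, and 3 to 9 lower and 0 higher in EZ. The interaction gave 0 throughout. The mean paired change in synthesis and uptake minus efflux ran from -1.06 to -0.90 in WT and from -0.81 to -0.63 in DKO.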
